A study of Mus musculus with 8 samples.

Results

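The 10 genes described here are Socs1, Socs2, Socs3 and Cish, which encode SOCS proteins (suppressors of cytokine signalling), Jak1 and Jak2, which encode Janus kinases, Stat3, Stat5a and Stat5b, which encode signal transducers and activators of transcription, and Pim1, which encodes a serine/threonine kinase. They were taken by symbol from the 22065 named genes of the count table. Socs3 was chosen by its rise in the normalized counts of these same libraries, so its difference is given as a description without a test. The other 9 were chosen as its partners in 1 signalling circuit. All 10 passed the filter on low counts.

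RNA-seq was performed on 4 libraries from Mitol-deleted HSCs (MitolΔ/Δ, replicates 1 to 4) and 4 from control HSCs (replicates 1 to 4). Each library was made from 100 cells sorted from the bone marrow of C57BL/6 mice, labelled as 8 to 10 weeks old, in the CD150+ CD48- EPCR+ Lineage- gate. The paper's definition of long-term HSCs also includes CD117 (c-Kit), the product of Kit. The MitolΔ/Δ mice carried Mitol Flox/Flox alleles and MX1-cre, and the control mice carried the same Flox/Flox alleles without Cre. Both groups received Poly:IC, a double-stranded RNA mimic that induces interferon and switches on the Mx1 promoter, about 1 week before analysis. The Mx1 promoter acts in every cell that responds to interferon, so Cre activity was not limited to HSCs, and all libraries come from marrow exposed to an interferon inducer. MITOL, encoded by Marchf5, is a ubiquitin ligase of the mitochondrial outer membrane. In the paper, mice counted as MitolΔ/Δ once PCR had shown the deletion of the gene. Marchf5 counts did not mark the labelled groups, with 232 to 308 normalized counts in MitolΔ/Δ HSCs and 262 to 333 in control HSCs (log2 fold change -0.15, edgeR, adjusted p = 0.498), and counts per gene do not separate the deleted exons from the rest.

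Cytokines such as interleukin 6 bind receptors that hold JAK kinases on their cytoplasmic side. The kinases phosphorylate the receptor and the STAT proteins, which then enter the nucleus and bind DNA at TTCNNNGAA elements. Socs and Cish genes are among the targets that STAT proteins switch on, and their products close a feedback loop by inhibiting the kinases or the receptor, in part through a SOCS box that recruits Elongin B, Elongin C, Cullin 5 and RNF7 to ubiquitinate bound proteins. In HSCs, signals through JAK2 and STAT5 are known for their part in stem cell maintenance. SOCS3 is known as the brake on receptors that use gp130, whereas CISH and SOCS2 are known mainly as STAT5 targets.

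The start of Socs3 is shown because it was the only one of the members' annotated starts with a TTCNNNGAA element within 250 bases upstream. RefSeq (GRCm38.p6) listed 12 starts for 9 of the 10 genes, and Socs2 had no entry. The motif TTCNNNGAA, which reads the same on both strands, was found upstream of 1 of these 12 starts and of 7.02% of 32851 starts of all genes. In the Socs3 sequence, chr11:117969367-117969616 on the minus strand of GRCm38.p6, the element TTCTTAGAA in capitals lies from position -154 to -146 relative to the start. Cish held no match upstream of its start, but the first 20 transcribed bases, chr9:107296659-107296678 on the plus strand, hold 2 matches, in capitals and 2 bases apart. Bases after the start are given for Cish alone, with no share over all starts beside them. The first of the 2 annotated starts of Pim1, chr17:29490535-29490784 on the plus strand, is printed for comparison with no capitals, as it held no match.
Socs3: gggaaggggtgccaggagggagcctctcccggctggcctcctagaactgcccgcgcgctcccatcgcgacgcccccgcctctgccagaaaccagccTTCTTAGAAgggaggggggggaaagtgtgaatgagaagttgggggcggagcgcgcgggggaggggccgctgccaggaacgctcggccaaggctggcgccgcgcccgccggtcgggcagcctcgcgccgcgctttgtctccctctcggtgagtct
Cish: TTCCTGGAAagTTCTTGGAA
Pim1: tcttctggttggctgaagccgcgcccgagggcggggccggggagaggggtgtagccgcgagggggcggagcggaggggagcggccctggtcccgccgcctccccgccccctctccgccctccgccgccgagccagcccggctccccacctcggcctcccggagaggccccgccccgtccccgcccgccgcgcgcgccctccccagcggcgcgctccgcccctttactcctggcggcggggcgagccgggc
These stretches were rich in G and C, at 71.6% upstream of Socs3 and 82.4% upstream of this start of Pim1, beside a median of 52.4% over all starts. A match of letters is a description of the sequence and does not show that a factor binds there.

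Library totals over named genes ran from 7214935 to 12398138 counts. The summed normalized count of 9 HSC genes was 19210 to 22785 in MitolΔ/Δ HSCs and 27495 to 32568 in control HSCs. All 9 were in the table, with 7 lower and 2 higher in log2 fold change. By the test 2 of them, Hlf and Kit, were lower, beside 3.75% lower of all genes tested. Hlf and Kit had the highest counts of the 9 and so weigh most in the sum. Slamf1, which encodes CD150, was higher without overlap but not past the test. It had 412 to 669 normalized counts in MitolΔ/Δ HSCs and 299 to 410 in control HSCs. Cd48, which the gate excludes, had 22.2 to 63.4 normalized counts in MitolΔ/Δ HSCs and 4.49 to 21.7 in control HSCs. At these low counts it was past the test, higher without overlap (log2 fold change 1.72, edgeR, adjusted p = 0.0450). Red-cell genes, 7 of 7 in the table, summed to 978, 1007, 3339 and 2202 in MitolΔ/Δ replicates 1 to 4 and to 392 to 782 in control HSCs, with Hbb-bt past the test. The sum peaked in MitolΔ/Δ replicates 3 and 4, so the differences of several genes below are also given without both. The single genes were not alike in these libraries. In replicates 3 and 4, Hbb-bs had 1048 and 8.46 normalized counts and Car1 had 6.41 and 523, while Hbb-bt had 1432 and 1408. The neutrophil genes, 7 of 8 in the table, summed to 16.9 to 36.6 in MitolΔ/Δ HSCs and 50.1 to 88.9 in control HSCs. Only 1 of them passed the filter on low counts, with a log2 fold change of 0.001 and not past the test. The others in the sum were too low to test. Markers of monocytes (5 of 7 in the table), B cells (4 of 6), T cells (3 of 6), mast cells (1 of 5) and megakaryocytes (3 of 5) together had 1 of 10 tested genes past the test, Pf4 of megakaryocytes, which was lower. Of all genes tested, 8.43% were past it in either direction. The part of other cells in the differences below was not tested. In bulk RNA, fewer cells that express a gene and less RNA per cell cannot be told apart.

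Socs3 was low in control HSCs and several times higher in MitolΔ/Δ HSCs. It had 194, 262, 260 and 43.1 normalized counts (counts divided by a size factor for each library) in control replicates 1 to 4. In MitolΔ/Δ replicates 1 to 4 it had 629, 700, 1789 and 2177. Every MitolΔ/Δ library was above every control library, and MitolΔ/Δ replicates 3 and 4 stood well above replicates 1 and 2. Groups apart in this direction were found in 8.17% of the 16444 genes tested. The means were 1324 ± 778 (SD, n = 4) and 190 ± 103 (SD, n = 4), a log2 fold change of 2.80 (standard error 0.51), or 6.94-fold. The standard error takes no account of the choice of Socs3 for its rise, so the fold may be too large. By the log2 fold change Socs3 ranked 13th of the 16444 genes tested, which describes how it was picked. Without MitolΔ/Δ replicates 3 and 4 the log2 fold change was 1.82, and it ran from 2.45 without control replicate 4 to 3.03 without MitolΔ/Δ replicate 1. Socs3 lies on chromosome 11 of GRCm39 from 117856905 to 117860898 on the minus strand, and its raw counts ran from 48 to 2058.

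**Figure D1:**
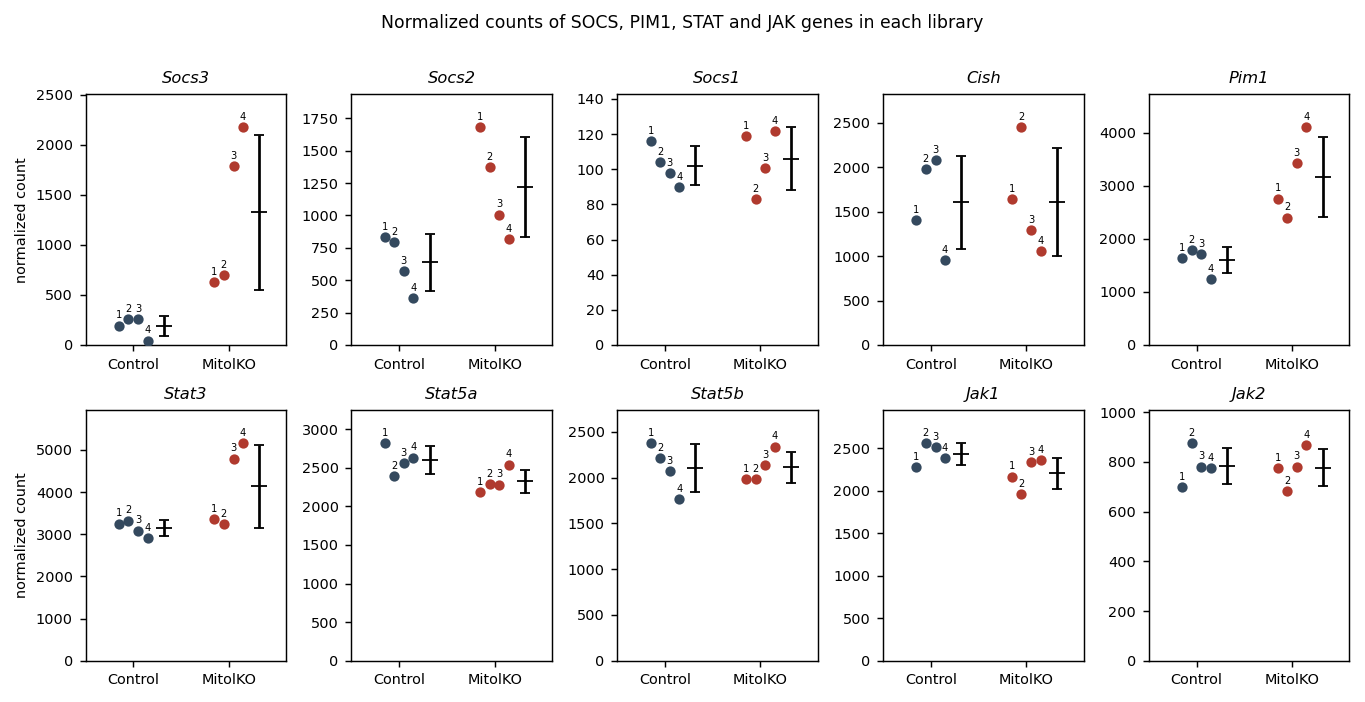
Normalized counts (linear y axes from 0) of the 10 genes in each control (dark) and MitolKO (red, MitolΔ/Δ) library, numbered by replicate, with the mean and SD of each group as a bar at its right. The groups are apart for Socs3 and Pim1, MitolKO replicates 3 and 4 are highest for Socs3, Stat3 and Pim1, and Socs2 runs the other way within the MitolKO group.

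Among the other 7 SOCS genes, 1 was past the test, Socs2, beside 8.43% of all genes tested. SOCS2 is known to restrain growth hormone and other STAT5-activating receptors. It had 835, 793, 572 and 359 normalized counts in control replicates 1 to 4 and 1683, 1373, 1006 and 820 in MitolΔ/Δ replicates 1 to 4. The groups overlapped, since MitolΔ/Δ replicate 4 lay below control replicate 1. Socs2 rose from 640 ± 220 to 1220 ± 384 (SD, n = 4 each), a log2 fold change of 0.92 (standard error 0.26, edgeR quasi-likelihood test with Benjamini-Hochberg adjustment over 16444 genes, adjusted p = 0.0464). The 2-sided exact permutation test over 70 arrangements gave p = 0.0571, where the smallest p that 4 against 4 allows is 0.0286. The call was lost with DESeq2 (adjusted p = 0.0522) and when 1 of 6 libraries was left out, with adjusted p = 0.129, 0.111 and 0.0688 without MitolΔ/Δ replicates 1, 2 and 3 and 0.0764, 0.108 and 0.0982 without control replicates 2, 3 and 4. It stood without MitolΔ/Δ replicates 3 and 4 together, at a log2 fold change of 1.27 (edgeR, adjusted p = 0.0074). Socs2 spans 95219523 to 95253929 of chromosome 10 on the minus strand of GRCm39.

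Cish, the classical STAT5 feedback target, was not past the test. Its normalized counts were 1408, 1975, 2080 and 958 in control replicates 1 to 4 and 1637, 2452, 1296 and 1059 in MitolΔ/Δ replicates 1 to 4. The libraries of both groups were interleaved, and the spread within each group was wide. The fold was 0.990 with a 95% interval of 0.668 to 1.47 (edgeR, adjusted p = 0.981), so changes within that interval were not detectable with 4 libraries a group. Without MitolΔ/Δ replicates 3 and 4 its log2 fold change was 0.35 (edgeR, adjusted p = 0.396). Socs1, the inhibitor best known for restraining interferon receptors, was the lowest of the 10 genes per kilobase of transcript. It had 116, 104, 98.0 and 89.8 normalized counts in control replicates 1 to 4 and 119, 83.1, 101 and 122 in MitolΔ/Δ replicates 1 to 4. Its fold was 1.03 with an interval of 0.776 to 1.37 (edgeR, adjusted p = 0.912), and the groups overlapped over nearly their whole range. Cish lies on chromosome 9 from 107173225 to 107179983 on the plus strand, and Socs1 on chromosome 16 from 10600104 to 10603875 on the minus strand of GRCm39.

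Levels were compared between genes as normalized counts per kilobase of the GENCODE vM39 canonical transcript. On this scale Cish and Socs2 led the SOCS family in control HSCs, and Socs3 joined them in MitolΔ/Δ HSCs. Of the summed level of all 8 SOCS genes, Socs3 made up 6.17%, 7.36%, 7.59% and 2.12% in control replicates 1 to 4. It made up 13.6%, 14.4%, 37.0% and 45.4% in MitolΔ/Δ replicates 1 to 4. The share of Socs3 was thus higher in every MitolΔ/Δ library, with means of 27.6% ± 16.1 and 5.81% ± 2.54 (SD, n = 4 each), and this follows from the choice of the gene. Cish held 38.0% ± 5.41 in control HSCs and 24.6% ± 9.04 in MitolΔ/Δ HSCs. This share also depends on the choice of Socs3, since shares of 1 sum fall where that of Socs3 rises. The level of Cish itself was 440 ± 143 and 442 ± 167 per kilobase (SD, n = 4 each). The summed level per kilobase of the family was 1141 ± 259 in control HSCs and 1797 ± 42.1 in MitolΔ/Δ HSCs (SD, n = 4 each). Without Socs3, the gene chosen for its rise, the sum was 1107, 1236, 1189 and 749 in control replicates 1 to 4 and 1500.1, 1569, 1144 and 983 in MitolΔ/Δ replicates 1 to 4, and the groups overlapped. With the union of all annotated exons as the length, Socs2 did not lead with Cish in control HSCs, at 41.9 per kilobase below Cish (250.1), Socs4 (100.2), Socs5 (85.4), Socs7 (64.5) and Socs3 (53.3). On that length the mean share of Socs3 was 7.69% in control HSCs and 35.2% in MitolΔ/Δ HSCs.

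**Figure D2:**
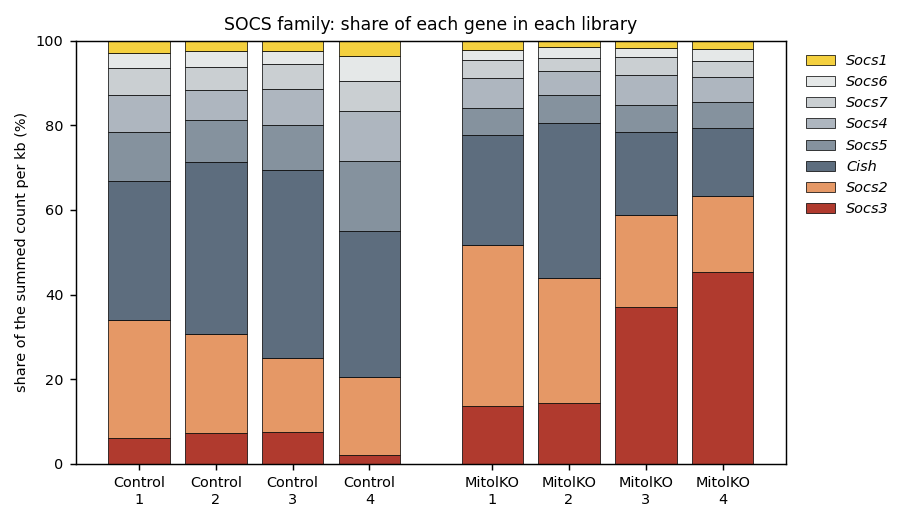
Share (%, y axis) of each of the 8 SOCS genes in the summed normalized count per kilobase of canonical transcript, with 1 bar for each control and MitolKO (MitolΔ/Δ) library. Socs3 takes 2.12% to 7.59% of the control bars and 13.6% to 45.4% of the MitolKO bars, and Cish is the largest block in all 4 control bars.

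None of the remaining family members, Socs4 to Socs7, was past the test. On the log2 scale Socs4 differed by 0.20, Socs6 by -0.02 and Socs7 by -0.01 (edgeR, adjusted p = 0.243, 0.948 and 0.971). Socs5 had 602 to 661 normalized counts in control HSCs and 512 to 573 in MitolΔ/Δ HSCs, so the groups did not overlap, yet it missed the threshold (log2 fold change -0.24, edgeR, adjusted p = 0.120). Groups apart in this direction were found in 7.18% of all genes tested, and in either direction in 15.4%. The partners of the SOCS box were higher in the mean in 5 of 5 cases, and this shared direction was not tested. Only the RING protein gene Rnf7, 1 of the 5, passed the test, beside 4.68% called higher among all genes tested. Rnf7 had 212.8 to 255 normalized counts in control HSCs and 274 to 368 in MitolΔ/Δ HSCs (log2 fold change 0.50, edgeR, adjusted p = 0.0366). The call for Rnf7 was kept in 1 of the 8 fits that left out a library, the one without MitolΔ/Δ replicate 4 (adjusted p = 0.0095), and without each of the other 7 libraries the adjusted p ran from 0.0583 to 0.103 by edgeR. Elob (Elongin B), at 0.52, and Eloc (Elongin C), at 0.32, had adjusted p = 0.152 and 0.126, and Cul5 (Cullin 5), at 0.12, had adjusted p = 0.532 by edgeR on the log2 scale.

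Pim1 was the other member past the test. PIM1 is a constitutively active kinase whose amount follows its transcription, and both STAT3 and STAT5 are known to induce it. It had 1635, 1796, 1721 and 1244 normalized counts in control replicates 1 to 4 and 2759, 2400, 3431 and 4111 in MitolΔ/Δ replicates 1 to 4. No MitolΔ/Δ library fell within the control range. Pim1 rose 1.96-fold with a 95% interval of 1.54 to 2.51, from 1599 ± 246 to 3175 ± 756 (SD, n = 4 each), a log2 fold change of 0.97 (standard error 0.16, edgeR, adjusted p = 0.00836, higher in 4 of 4 libraries). The 2-sided exact permutation test gave p = 0.0286, the smallest possible. The call held in all 8 fits that left out a library, with log2 fold changes from 0.84 to 1.09, and in all 5 other settings tried. Without MitolΔ/Δ replicates 3 and 4 the log2 fold change was 0.69 (edgeR, adjusted p = 0.0071). Pim1 lies on chromosome 17 from 29709581 to 29715086 on the plus strand of GRCm39.

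Of the related kinases, Pim2 was past the test and Pim3 was not. Pim2, likewise a target of STAT5, rose from 268, 313, 265 and 178 normalized counts in control replicates 1 to 4 to 539, 749, 659 and 672 in MitolΔ/Δ replicates 1 to 4 (2.53-fold, 95% interval 1.98 to 3.25, edgeR, adjusted p = 0.00344). All 4 MitolΔ/Δ libraries were above the controls. Pim3 had 295 to 568 normalized counts in control HSCs and 302 to 516 in MitolΔ/Δ HSCs (log2 fold change -0.25, edgeR, adjusted p = 0.467), a range that lay within that of the controls. Of the summed level of the 3 PIM genes per kilobase, Pim3 made up 20.0% ± 2.63 in control HSCs and 9.25% ± 0.688 in MitolΔ/Δ HSCs (SD, n = 4 each). This share falls where those of Pim1 and Pim2 rise. The level of Pim3 itself was 173 ± 44.3 per kilobase in control HSCs and 147 ± 35.2 in MitolΔ/Δ HSCs (SD, n = 4 each).

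Among the transcription factors, Stat3 was well above the controls in 2 of the MitolΔ/Δ libraries and close to them in the other two. STAT3 carries signals of the gp130 receptors and of the G-CSF receptor. Its normalized counts were 3251, 3324, 3085 and 2904 in control replicates 1 to 4 and 3350, 3236, 4793 and 5168 in MitolΔ/Δ replicates 1 to 4. Replicates 1 and 2 were thus close to the controls, and replicates 3 and 4 were above all of them. The log2 fold change of 0.38 (standard error 0.14, 95% interval of the fold 1.05 to 1.62) did not pass the test (edgeR, adjusted p = 0.119, 2-sided exact permutation p = 0.0857), and without replicates 3 and 4 it was 0.07 (adjusted p = 0.651). These replicates also had the largest sums of red-cell genes, and the part of other cells in this was not tested. Stat5a had 2822, 2386, 2555 and 2631 normalized counts in control replicates 1 to 4 and 2181, 2284, 2279 and 2540 in MitolΔ/Δ replicates 1 to 4. The groups overlapped in MitolΔ/Δ replicate 4 (fold 0.882, interval 0.777 to 1.00, edgeR, adjusted p = 0.197). Stat5b had 2380, 2215, 2070 and 1764 and then 1987, 1983, 2137 and 2338 normalized counts in the same order. Its groups covered the same range, and the log2 fold change was -0.01 (standard error 0.10, edgeR, adjusted p = 0.948).

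The 3 Stat genes lie together within 159 kb of chromosome 11, Stat5b from 100671556 to 100741589 on the minus strand, Stat5a from 100750177 to 100776065 on the plus strand and Stat3 from 100775924 to 100830450 on the minus strand of GRCm39. Stat5a and Stat5b are near-identical copies in much of their coding sequence, so reads may have been split or lost between them. Stat3 and Stat5a share 142 bases at their ends, and the strand setting of the counting is not stated, so reads from that stretch cannot be assigned to 1 of them. Outside the members, Stat2 and Stat6 had log2 fold changes of -0.03 and -0.04 (edgeR, adjusted p = 0.938 and 0.872).

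Neither Janus kinase was past the test. JAK1 serves interferon, gp130 and common gamma receptors, and Jak1 had 2279, 2562, 2515 and 2382 normalized counts in control replicates 1 to 4. It had 2164, 1964, 2336 and 2358 in MitolΔ/Δ replicates 1 to 4, mostly lower but overlapping control replicate 1 (log2 fold change -0.16, standard error 0.09, edgeR, adjusted p = 0.263). JAK2 serves the erythropoietin receptor among others, and Jak2 had 698, 877, 781 and 776 normalized counts in control replicates 1 to 4. In MitolΔ/Δ replicates 1 to 4 it had 773, 684, 781 and 869, which spans the same range (log2 fold change -0.03, standard error 0.11, edgeR, adjusted p = 0.888). Jak3 and Tyk2 had log2 fold changes of 0.38 and -0.25 (edgeR, adjusted p = 0.0754 and 0.138). By DESeq2 Jak3 was past the threshold (adjusted p = 0.0280), and Tyk2 was past it by edgeR without MitolΔ/Δ replicates 3 and 4 (-0.36, adjusted p = 0.0469). Jak1 lies on chromosome 4 from 101008838 to 101122487 on the minus strand and Jak2 on chromosome 19 from 29228677 to 29290505 on the plus strand of GRCm39.

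Of the 9 members other than Socs3, 2 were past the test, Pim1 and Socs2, both higher. Of all 16444 genes tested, 8.43% were past it, 4.68% higher and 3.75% lower in MitolΔ/Δ HSCs. The median log2 fold change was -0.01 over these 9 genes and -0.02 over all genes. With so few genes, and a list drawn up with earlier results of these data known, the count describes these genes and no more.

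**Figure D3:**
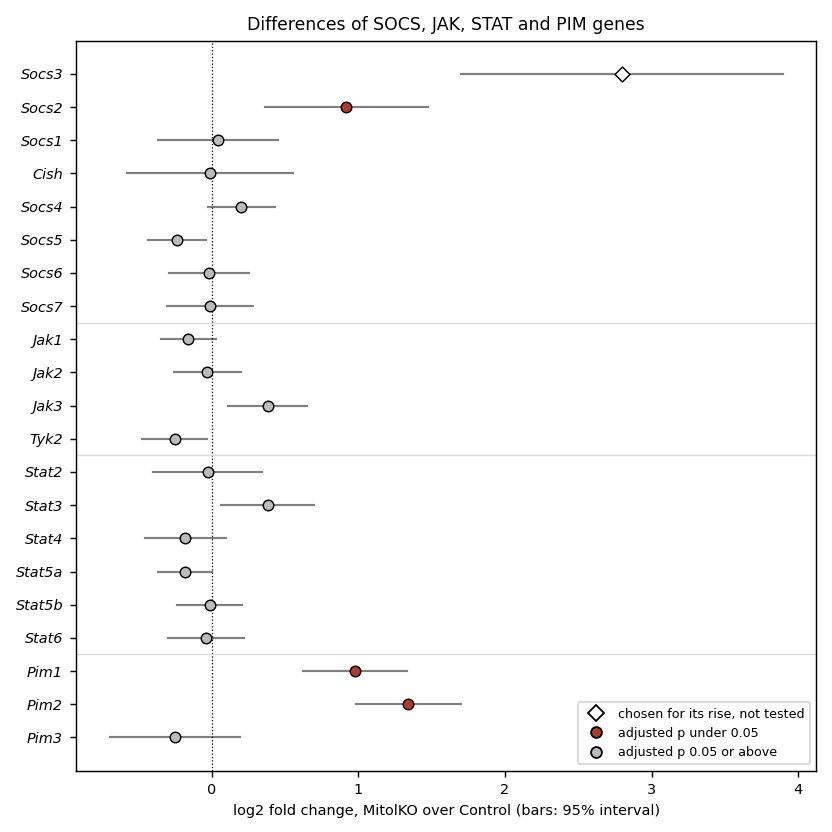
Log2 fold change (x axis, MitolKO, that is MitolΔ/Δ, over control) of each SOCS, JAK, STAT and PIM gene in the fit over all genes, with its 95% interval as a bar. Red points (Socs2, Pim1 and Pim2) are past an adjusted p of 0.05, grey ones are not, and the open diamond marks Socs3, which was chosen for its rise and has no test. The bar of Socs3 takes no account of that choice and is not a test.

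In control HSCs the members ranked, by mean normalized counts per kilobase of canonical transcript, Stat3 (688 ± 40.9), Stat5a (656 ± 45.7), Pim1 (562 ± 86.4), Cish (440 ± 143), Jak1 (432 ± 22.8), Stat5b (414 ± 51.4), Socs2 (252 ± 86.5), Jak2 (142 ± 13.3), Socs3 (71.2 ± 38.6) and Socs1 (31.3 ± 3.40), each with the SD of 4 libraries. Neighbours in this order had overlapping ranges except at 2 places, between Stat5b and Socs2 and between Jak2 and Socs3. In MitolΔ/Δ HSCs the level of Pim1 was 1117 ± 266 per kilobase, that of Socs3 was 497 ± 292 and that of Socs2 was 480 ± 151. The order depends on the length used, since with the union of all annotated exons Pim1 came first at 456 and Socs2 fell to 41.9 per kilobase, below Socs3 at 53.3.

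Ligands and receptors of the pathway were read from lists that left the members out. Over all pathway lists, 80 of 106 genes were tested, 6 were higher and 2 lower by the test, and their median log2 fold change was 0.02. This is 8 of 80 genes, beside the 8.43% of all genes given above. Of 22 cytokines, 14 were in the table and 9 were tested. Among them Clcf1, a ligand of the CNTF receptor and gp130, fell from 584, 530, 572 and 718 normalized counts in control replicates 1 to 4 to 349, 277, 338 and 316 in MitolΔ/Δ replicates 1 to 4 (log2 fold change -0.93, edgeR, adjusted p = 0.00383), with no overlap.

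Of 25 receptor genes tested, 2 were past the test, both higher, beside 8.43% of all genes tested. Il2rg, the common gamma chain, rose from 429, 448, 424 and 467 normalized counts in control replicates 1 to 4 to 672, 775, 842 and 758 in MitolΔ/Δ replicates 1 to 4 (1.70-fold, interval 1.46 to 1.99, edgeR, adjusted p = 0.00381). Ifnar2, a chain of the type I interferon receptor, rose from 514, 569, 572 and 465 to 730, 645, 733 and 788 normalized counts in the same order (log2 fold change 0.43, edgeR, adjusted p = 0.0305). Its groups did not overlap, but the call was lost without MitolΔ/Δ replicate 1 or 3 (adjusted p = 0.0710 and 0.0692), without control replicate 2 or 4 (0.0653 and 0.0828) and without MitolΔ/Δ replicates 3 and 4 together (0.0731).

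Il6st, which encodes gp130, had 1044 to 1111 normalized counts in control HSCs and 1167 to 1618 in MitolΔ/Δ HSCs. The groups did not overlap, yet the gene missed the threshold (log2 fold change 0.39, edgeR, adjusted p = 0.0556), and the adjusted p ran from 0.0147 to 0.0720 under the 5 other planned settings, 4 of which called it. Without MitolΔ/Δ replicates 3 and 4 the log2 fold change was 0.19 (edgeR, adjusted p = 0.206). Csf3r, the G-CSF receptor, had 1786 to 2073 normalized counts in control HSCs and 1855, 1653, 3099 and 3210 in MitolΔ/Δ replicates 1 to 4 (log2 fold change 0.36, edgeR, adjusted p = 0.250), the same pattern of libraries as Stat3. Without replicates 3 and 4 its log2 fold change was -0.10. Ifnar1 and Ifngr1 had log2 fold changes of -0.09 and 0.36 (edgeR, adjusted p = 0.521 and 0.0932), and Ifngr1 was past the threshold by DESeq2 (adjusted p = 0.0470).

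Other inhibitors of the pathway, 13 phosphatases, PIAS proteins, adaptors and related regulators, had 0 genes past the test by edgeR, 0 at an unadjusted p under 0.05, and 0 by DESeq2 or limma-voom. Ptpn6 (SHP-1), Ptpn11 (SHP-2) and Sh2b3 (LNK), known modulators of cytokine receptor signals, had log2 fold changes of 0.09, 0.17 and -0.08 (edgeR, adjusted p = 0.526, 0.299 and 0.604). Of 11 tested STAT5 targets other than the members, Pim2 and Gadd45g were higher and Ccnd2 was lower, beside 8.43% of all genes past the test. Ccnd2, cyclin D2, fell from 7538, 7316, 7210 and 7615 normalized counts in control replicates 1 to 4 to 5516, 5899, 4279 and 3507 in MitolΔ/Δ replicates 1 to 4 (log2 fold change -0.65, edgeR, adjusted p = 0.0177). It missed the threshold without MitolΔ/Δ replicate 3 (adjusted p = 0.0608) or control replicate 2 (0.0531), and without MitolΔ/Δ replicates 3 and 4 its log2 fold change was -0.38 (adjusted p = 0.0123). Gadd45g, a stress-induced growth arrest gene, had 15.1 to 26.9 normalized counts in control HSCs and 28.2, 52.0, 179 and 201.0 in MitolΔ/Δ replicates 1 to 4 (log2 fold change 2.29, edgeR, adjusted p = 0.0287). Its call was lost without MitolΔ/Δ replicate 3 (adjusted p = 0.0732) or control replicate 2, 3 or 4 (0.0766, 0.0746 and 0.0704), and without MitolΔ/Δ replicates 3 and 4 its log2 fold change was 0.78 (adjusted p = 0.247). It was also lost with limma-voom (1.81, adjusted p = 0.143).

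Of 13 tested STAT3 targets other than the members, only Bcl3 was past the test, beside 8.43% of all genes tested. Bcl3, a nuclear partner of NF-kB, rose from 193, 137, 149 and 96.1 normalized counts in control replicates 1 to 4 to 348, 331, 546 and 543 in MitolΔ/Δ replicates 1 to 4 (3.06-fold, interval 2.16 to 4.32, edgeR, adjusted p = 0.00428). The groups were apart, and MitolΔ/Δ replicates 3 and 4 were again the highest. Without both the log2 fold change was 1.25 (edgeR, adjusted p = 0.0048), beside 1.61 with all libraries. Of 22 interferon-induced genes, 2 were higher and 1 lower by the test, beside 4.68% higher and 3.75% lower of all genes tested. Ifitm3 and Ifitm1, antiviral membrane proteins, had log2 fold changes of 0.59 and 0.63 (edgeR, adjusted p = 0.00381 and 0.0386), and Irf1, a transcription factor induced by interferon, fell by 0.72 on the log2 scale (edgeR, adjusted p = 0.0136). Ifitm1 was lost without MitolΔ/Δ replicate 2 or 3 (adjusted p = 0.0957 and 0.0743), without control replicate 2, 3 or 4 (0.0818, 0.0966 and 0.0841) and without MitolΔ/Δ replicates 3 and 4 together (0.0771).

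**Figure D4:**
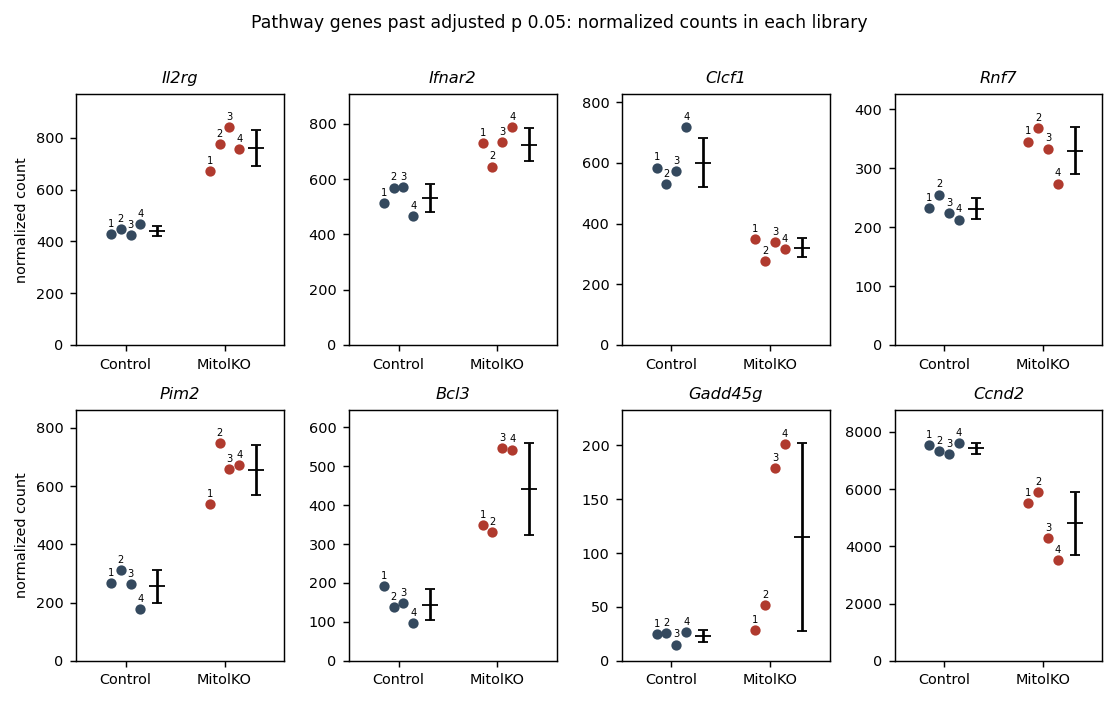
Normalized counts (linear y axes from 0) of 8 pathway genes outside the members that were past an adjusted p of 0.05, in each control and MitolKO (MitolΔ/Δ) library, numbered by replicate, with the mean and SD of each group at its right. Il2rg, Ifnar2, Rnf7, Pim2, Bcl3 and Gadd45g are higher and Clcf1 and Ccnd2 lower in all 4 MitolKO libraries.

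Socs3 is also known as a gene that cells switch on within minutes of handling or stimulation, so genes of the immediate early response were set beside it. Over all genes tested, 4.68% were higher and 3.75% lower by edgeR. Of 21 immediate early genes tested, 0 were higher by edgeR (1 at an unadjusted p under 0.05, the heat shock gene Hspa1b, 1 by DESeq2 and 0 by limma-voom) and 2, Fosb and Klf6, were lower (edgeR, adjusted p = 0.0476 and 0.0388). Each call was kept in 2 of the 8 fits that left out a library. Fosb stayed past the threshold without MitolΔ/Δ replicate 4 or control replicate 1 (adjusted p = 0.0045 and 0.0442), and Klf6 without MitolΔ/Δ replicate 4 or control replicate 4 (0.0351 and 0.0175). The call for Fosb was also lost with RLE size factors and with no filter (0.0505 and 0.0524), and that for Klf6 with limma-voom and without MitolΔ/Δ replicates 3 and 4 (0.0515 and 0.0624). The summed normalized count of all 23 genes was 27867, 32236, 41139 and 47324 in MitolΔ/Δ replicates 1 to 4 and 51306, 45816, 51990 and 28056 in control replicates 1 to 4. The group ranges overlapped, and within each group the libraries lowest in Socs3, MitolΔ/Δ replicate 1 and control replicate 4, were also lowest in this sum.

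Within the groups, the genes whose library-to-library pattern was most like that of Socs3 were Ppp1r15a, Rhag, Atg3, Gata1 and B3gnt5. Likeness was the Pearson correlation, across 8 libraries that share their group means and preparation, of log2 normalized counts after each group mean was removed, among 12012 genes with at least 50 mean normalized counts. It was 0.994 for Ppp1r15a, a phosphatase subunit of the stress response, 0.986 for Rhag, a red-cell membrane protein, 0.985 for Atg3, an autophagy enzyme, 0.981 for Gata1, a transcription factor of red cells and megakaryocytes, and 0.980 for B3gnt5, a glycosyltransferase. Ppp1r15a had 1399, 1505, 1486 and 586 normalized counts in control replicates 1 to 4 and 801, 787, 1329 and 1606 in MitolΔ/Δ replicates 1 to 4, so it followed Socs3 within the groups but not between them. Its log2 fold change was -0.15 (edgeR, adjusted p = 0.782), and -0.64 without MitolΔ/Δ replicates 3 and 4 (adjusted p = 0.167). Gata1 had 25.1, 31.9, 22.6 and 6.29 and then 114, 131, 297 and 305 normalized counts in the same order, apart between the groups like Socs3 (log2 fold change 3.30, edgeR, adjusted p = 0.00381, and 2.53 with adjusted p = 0.00369 without MitolΔ/Δ replicates 3 and 4).

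Of the 9 other members, Pim1 was the most like Socs3 within the groups, at 0.913, followed by Stat5b at 0.851 and Stat3 at 0.735, while Socs2 was at 0.156 and Cish at 0.174. The median was 0.449 over these 9 genes, 0.808 over 19 immediate early genes and 0.0009 over all 12012 genes. In the deviations of Socs3 from its group means, control replicate 4 and MitolΔ/Δ replicate 1 lay farthest from the median deviation. Without them, over 6 libraries, the value was 0.963 for Pim1, 0.917 for Jak1, 0.858 for Stat3, 0.562 for Stat5b, -0.452 for Socs2 and -0.593 for Cish. The median over the 9 members was then 0.746, above that of 0.649 over the immediate early genes, so the order of these medians rests on the 2 libraries. Socs2 and Cish thus did not follow Socs3 from library to library. Other genes of the STAT5 target list were mixed over the 8 libraries, with Pim1 at 0.913 and Pim2 at 0.747 but Ccnd2 at -0.637. The values of so few libraries are a description.

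**Figure D5:**
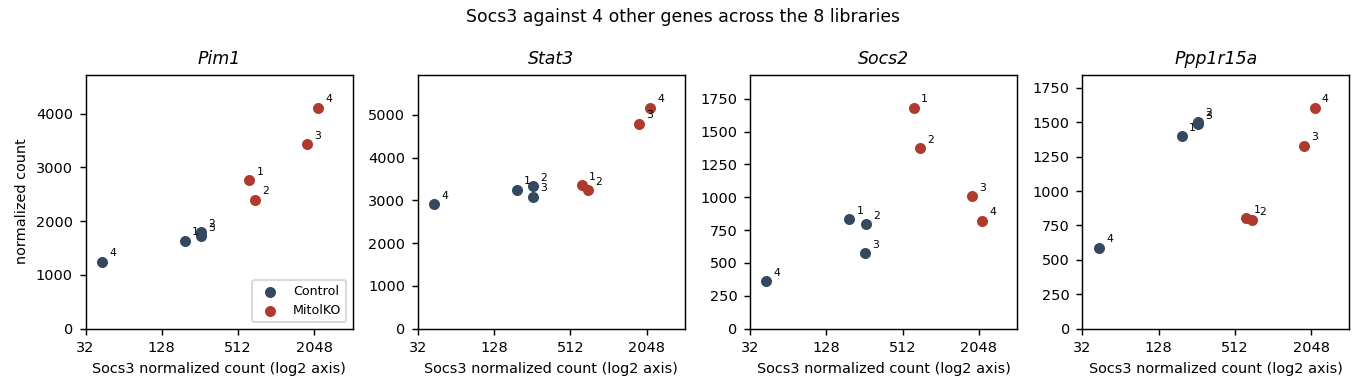
Normalized count of Pim1, Stat3, Socs2 and Ppp1r15a (linear y axes from 0) against that of Socs3 (x axis, log2 scale) in the 8 libraries, numbered by replicate. Pim1 climbs with Socs3 over both groups, Stat3 is raised in MitolKO (MitolΔ/Δ) replicates 3 and 4, Socs2 falls with Socs3 within the MitolKO group, and Ppp1r15a follows Socs3 within each group while the groups lie side by side.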

How the data were processed

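RNA-seq libraries of sorted HSCs were sequenced by the authors as single-end reads of 75 bp, aligned with STAR to mm39 and counted per gene with subread, with samtools used to merge alignments. Which annotation and strand setting subread used is not given in the sources used here. The deposited counts are raw and not normalized. Of 23094 rows, 1029 without a gene symbol (0.335% to 0.467% of a library's counts) stayed out of library sizes and tests. Hyphens of symbols, written as points in the table, were restored for listed genes.

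Differences were tested with edgeR (version 4.0.16, R version 4.3.3), quasi-likelihood, TMM normalization and the default expression filter, with the group as the sole term, at an adjusted p under 0.05. Normalized counts are counts divided by DESeq2 (version 1.42.0) size factors. Single members were also compared by 2-sided exact permutation tests, unadjusted. Alternatives were RLE size factors, no filter, DESeq2, limma-voom (limma version 3.58.1), a replicate block and each library left out. Leaving out MitolΔ/Δ replicates 3 and 4 was added after the data were seen. The fits were tested on simulated data. The members and lists were chosen with earlier results of these data known, and the pathway, marker and immediate early lists were written from general knowledge. A few listed genes are not reported here and were left out of the lists. Genes named are the members, list genes past the threshold (at most 6 a list), a fixed set of receptors and regulators, and the 5 genes most like Socs3. Hbb-bt, Hbb-bs, Car1, Hlf, Kit, Slamf1, Cd48, Pf4 and Hspa1b were named after their values were seen. Positions and transcript lengths came from GENCODE vM39 and sequences from RefSeq. Nothing states that replicates are separate mice, so p-values measure the spread between these libraries, which may be technical. Counts carry no molecular identifiers, so they are not independent molecules. Same-numbered libraries of the groups correlated at 0.090, -0.108, 0.0831 and 0.0742 in their deviations, so the numbers were not taken to pair them.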

Additional observations from a re-analysis of the deposited data

Results flagged for a closer look

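In 5 of the 86 groups of 4 libraries checked (43 genes, both conditions), 1 library stood apart from the other 3 by Dixon's criterion, which flags about 1 in 20 groups by chance. Gadd45g was lowest in control replicate 3, at 15.1 normalized counts, beside 25.1 to 26.9 in the other controls. Ifngr1, a chain of the interferon gamma receptor, was lowest in MitolΔ/Δ replicate 2, at 962 beside 1295 to 1314. Socs7 was lowest in control replicate 4, at 399.6 beside 527 to 546. Stat2 was highest in control replicate 2, at 619 beside 516 to 529. Eloc was highest in control replicate 2, at 238 beside 200.3 to 204. None of the 10 genes of the report met the criterion in either group.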

How the results depend on the processing

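With 4 libraries of 100 cells a group, the count of genes called moved with the setting. Over all genes it was 1386, 2315 by DESeq2, 2422 without MitolΔ/Δ replicates 3 and 4, and 359 to 2501 when 1 library was left out, the lowest without control replicate 2 and the highest without MitolΔ/Δ replicate 4. Of the 9 members, 2 were called, 1 by DESeq2 and 1 to 2 with a library left out. Of the 80 other pathway genes, 8 were called, 19 by DESeq2 and 4 (without control replicate 2 or MitolΔ/Δ replicate 3) to 12 (without MitolΔ/Δ replicate 4). Calls of interferon-induced genes were 3, and 2 to 5 with a library left out. Immediate early calls were 2, with 1 each by RLE, no filter and limma-voom, 4 by DESeq2, 4 without MitolΔ/Δ replicates 3 and 4 and 0 to 3 with a library left out. The cause of these shifts was not tested. Genes near 0 changed sign. Socs7 was at 0.00031 (RLE), 0.0118 (no filter), 0.0067 (DESeq2) and 0.0028 (limma-voom), Cish at 0.0126 (no filter) and 0.0053 (DESeq2), Stat5b at 0.0079 (no filter) and 0.0031 (DESeq2), and Socs6 at 0.0056 (no filter). Without MitolΔ/Δ replicates 3 and 4, Socs1 was at -0.0029, Cish at 0.35, Csf3r at -0.10 and Socs6 at 0.019. With a library left out the log2 fold changes of Socs1 ran from -0.012 to 0.15, Cish from -0.28 to 0.16, Stat5b from -0.089 to 0.061, Jak2 from -0.069 to 0.032, Socs6 from -0.047 to 0.053, Socs7 from -0.11 to 0.083, Stat2 from -0.21 to 0.095 and Stat6 from -0.10 to 0.054. Socs3 ran from 2.45 to 3.03 with a library left out and from 2.70 to 2.90 under the 5 other planned settings, but was at 1.82 without MitolΔ/Δ replicates 3 and 4.

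With the replicate block, 1652 genes were called in all and 2 of the 9 members, as without it. Socs2 had adjusted p = 0.0028, Il6st moved past the threshold (adjusted p = 0.0457) and 11 pathway genes were called. Same-numbered libraries are not labelled as pairs. Of the 4 pairs, 1 correlated negatively and the rest weakly positively, so these values do not decide whether the numbers pair the libraries. The MitolΔ/Δ library correlated best with its own number among the controls in 2 of 4 cases.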
